A study of Arachis hypogaea with 30 samples.

Results

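The late salt response of the peanut cultivar HY33 was taken as the change from HY33 seedlings kept in water at 0 h (3 libraries) to HY33 seedlings held for 48 h in 100 mM NaCl (3 libraries), which makes 6 of the 30 libraries of the series. Of the 82955 genes in the table, 42311 reached an FPKM (fragments counted per gene, scaled to exon length and library total) of at least 1 in at least 3 of the 30 libraries, and these were tested. The study measured poly(A) RNA in whole hydroponic seedlings of 2 cultivars at the 3-leaf stage, HY33, labelled tolerant to salt stress, and HY9115, labelled sensitive. Each cultivar was sampled at 0 h and after 3, 12, 24 and 48 h in 100 mM NaCl, with 3 replicates a group. There were no water controls after 0 h, which means that effects of salt, elapsed time, time of day and growth cannot be told apart. The labels call the replicates biological and leave unsaid whether each was a separate plant or a pool. The p-values measure the spread between these libraries, and how much of it lies between plants is not known. Peanut (Arachis hypogaea) is an allotetraploid with 2 subgenomes, and counts of near-identical copies or tandem duplicates may be split or lost. Whether counting used strand is not known, so overlapping genes cannot be separated either.

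Salt in the root medium lowers the water potential around the root and lets sodium and chloride build up in the plant. Over the following days, plants generally close their stomata through abscisic acid, make compatible solutes and chaperones, detoxify reactive compounds, and slow growth and photosynthesis. Legumes also make phenolic defence compounds under stress, and peanut is known for stilbenes of the resveratrol type. The comparisons below ask which of these gene groups stood higher or lower in HY33 at 48 h, which had moved since 24 h, and where the change differed from that of HY9115.

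The 6 libraries held 15284727 to 17617692 counts, and 48854 to 51008 genes had a count in each. Replicates of a group correlated at 0.9877 to 0.9915 on a log scale across genes, and no pair was alike within counting noise. The label of whole seedlings was matched by transcripts of several organs. At 0 h the photosystem and light-harvesting genes of green shoots held 2.11 to 2.22% of the counts and the RuBisCO small subunit genes were among the highest, while nitrate transporters of the NRT2 family and nicotianamine synthases, which are mainly root genes, were also present. In bulk RNA from whole seedlings, fewer cells of a type and less RNA per cell cannot be told apart, and the part of such shifts in the results below was not tested.

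At 0 h, HY33 stood apart from HY9115 in 6 stretches of neighbouring genes, found with a running median over 31 tested genes. The stretches held 438 tested genes, of which 170 were counted as higher and 101 as lower at 48 h. The longest lay on chromosome 14 (137271521 to 140967531), where 173 genes had a median log2 difference between the cultivars of -2.2 at 0 h and 0.07 at 48 h, and 125 of them were counted as higher at 48 h. On chromosome 12 (117722663 to 118285409) the median of 32 genes was 4.26 higher in HY33 at 48 h than at 0 h, and already 6.13 higher at 3 h. There the median difference between the cultivars was -6.54 at 0 h and still -1.73 at 48 h. The same search at 48 h found stretches again on chromosomes 2 and 12 (medians 0.97 and -1.78). On chromosome 4 (123083911 to 125864250) 67 of 170 genes were lower and 23 higher. The corresponding changes in HY9115 from 0 to 48 h had medians of 0.26, 0.01 and 0.15 in these stretches. The HY33 libraries at 0 h are the baseline of every comparison with water, so the counts of calls are also given without these genes. On chromosomes 12 and 14 the later HY33 libraries stood apart from the 0 h libraries already at 3 h (medians 6.13 and 2.13) and still at 24 h (6.32 and 1.2). Whether the 0 h or the 48 h seedlings came from the same seed stock as the others was not tested, and removing the stretches does not settle it for the rest of the genome. No gene named below lies in a stretch.

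A gene is said to have risen or fallen only where it was called: the log2 change was 1 or more in size and edgeR's quasi-likelihood test, after Benjamini-Hochberg adjustment, gave p under 0.05. Levels are FPKM ± SD (n = 3) and changes are log2 ± SE. Levels, shares of counts, fold bounds and count ratios are scaled to library totals, while the log2 changes use edgeR's TMM scaling. From 0 to 48 h the log2 changes therefore lie above the ratio of the levels by a median of 0.376. The SE was worked back as the size of the change over the square root of the test's F statistic, so it is approximate. Part of the genes below were named only if their 0 h and 48 h libraries did not overlap, so a lack of overlap is description and no further support. Coordinates are those of the deposited table, whose genome build is not stated there. From 0 to 48 h, 14558 genes were called, 34.4% of those tested. Of the tested genes 14.3% (6067) rose and 20.1% (8491) fell, and the median change of all genes was -0.014. Without the 6 stretches, 5897 rose and 8390 fell. Without the 2417 genes that already differed between the cultivars at 0 h, 5452 rose and 7673 fell. The balance depends on the scaling: with library totals alone, which lower all changes by a median of 0.376, 4201 rose and 11842 fell. Both subgenomes contributed, with 2843 risen and 4145 fallen among 20457 genes on chromosomes 1 to 10 and 3208 and 4329 among 21768 on chromosomes 11 to 20.

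The plot of gene lists orders the lists by their median change. Toward the rising end, the risen members outnumbered the fallen ones among enzymes of flavonoid and stilbene synthesis, heat shock proteins, glutathione S-transferases and phenylpropanoid enzymes. Toward the falling end, the fallen members outnumbered the risen ones in photosynthesis, the Calvin cycle, cellulose synthases, surface barrier enzymes, histones, aquaporins, the cell cycle and auxin genes. Others, such as the abscisic acid list with 19 risen and 18 fallen of 93 genes, lay in between.

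**Figure D1:**
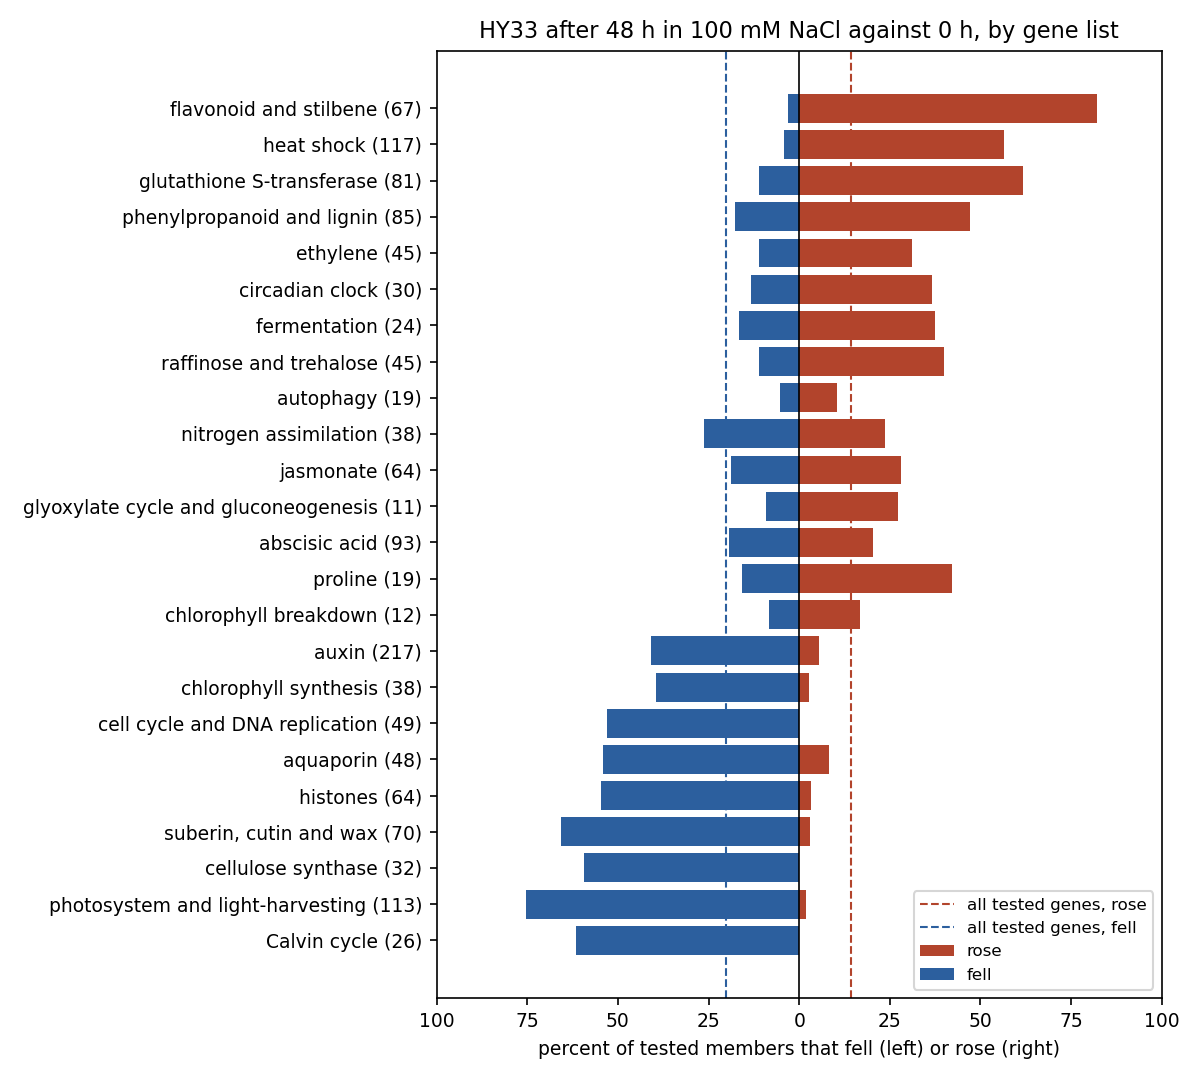
Percent of the tested members of each gene list (number tested in brackets) that fell (blue, left) or rose (red, right) in HY33 at 48 h against 0 h, ordered by the list's median change. Dashed lines mark the same percentages over all 42311 tested genes (14.3% risen, 20.1% fallen): 55 of 67 flavonoid and stilbene genes rose and 85 of 113 photosystem and light-harvesting genes fell.

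Photosynthesis genes fell broadly. Of 113 photosystem and light-harvesting genes 85 fell and 2 rose, with a median of -1.65. By role, 24 of 26 photosystem I subunits, 20 of 23 photosystem II subunits, 25 of 34 light-harvesting chlorophyll proteins and 16 of 30 electron carriers and ATP synthase subunits fell. The list's share of all counts went from 2.15% ± 0.064 at 0 h to 0.496% ± 0.0201 at 48 h. The light-harvesting gene Ah03g569500, which feeds photosystem II with captured light, had 3002, 2738 and 2625 FPKM in the 3 libraries at 0 h and 543, 518 and 583 at 48 h. Every 48 h library was far below every 0 h library, and the change was -1.97 ± 0.08 (edgeR adjusted p = 6.3e-21). The photosystem I gene Ah20g333600 went from 164 ± 12.5 to 14.1 ± 0.698 FPKM (-3.17 ± 0.12), and the ferredoxin gene Ah14g039400, whose product carries electrons away from photosystem I, from 128 ± 4.29 to 7.22 ± 0.979 (-3.77 ± 0.12).

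The 2 members that rose encode ferredoxin-NADP reductases, the enzymes that pass electrons from ferredoxin to NADP. Ah04g086100 rose from 19.3 ± 0.881 to 55.4 ± 1.32 FPKM (1.89 ± 0.08) and Ah14g097500 from 15 ± 0.248 to 32.5 ± 1.79 (1.49 ± 0.09). Of 9 genes with this annotation 4 fell, among them Ah01g096000, from 111 ± 5.93 to 10.5 ± 0.905 FPKM (-3.02 ± 0.09), so the members of the family went in opposite directions.

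Carbon fixation genes fell as well. Of 26 Calvin cycle genes 16 fell and 0 rose, with a median of -2.13. Their share of the counts went from 2.11% ± 0.0558 to 0.269% ± 0.00697. The most abundant was the RuBisCO small subunit gene Ah10g374400 (chromosome 10, 113011657 to 113012591), a part of the enzyme that fixes carbon dioxide. It had 9451, 9782 and 10067 FPKM at 0 h and 734, 685 and 747 at 48 h. All 48 h libraries lay far below the lowest 0 h library, with a change of -3.38 ± 0.09 (edgeR adjusted p = 1e-25). In all, 5 of 6 RuBisCO small subunit genes, 4 of 4 plastid glyceraldehyde phosphate dehydrogenases and both sedoheptulose bisphosphatases fell. The fructose bisphosphatase Ah14g268800 had 108, 112 and 110 FPKM at 0 h and 7.28, 5.8 and 6.77 at 48 h (-3.68 ± 0.12). Of the 12 fructose bisphosphatases 4 fell and 0 rose; the family also holds cytosolic enzymes of sucrose synthesis, which the annotation does not separate.

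Genes of chlorophyll synthesis fell in a smaller share. Of 38 genes 15 fell and 1 rose, with a median of -0.93 (28 fell with library totals alone). Protochlorophyllide reductase Ah03g212200, which carries out the light-dependent step, went from 23.5 ± 0.797 to 3.89 ± 0.428 FPKM (-2.22 ± 0.14), and glutamyl-tRNA reductase Ah07g277700, at the start of the pathway, from 17.1 ± 0.864 to 3.05 ± 0.577 (-2.11 ± 0.13). Among 12 genes of chlorophyll breakdown 2 rose and 1 fell (2 and 3 with library totals alone), shares near or under those of all genes. Both risen genes encode chlorophyll b reductase, which starts chlorophyll breakdown: Ah05g337900 went from 14.2 ± 0.307 to 31.8 ± 2.33 FPKM (1.54 ± 0.08) and Ah15g457900 from 7.36 ± 0.302 to 16 ± 1.21 (1.49 ± 0.1).

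**Figure D2:**
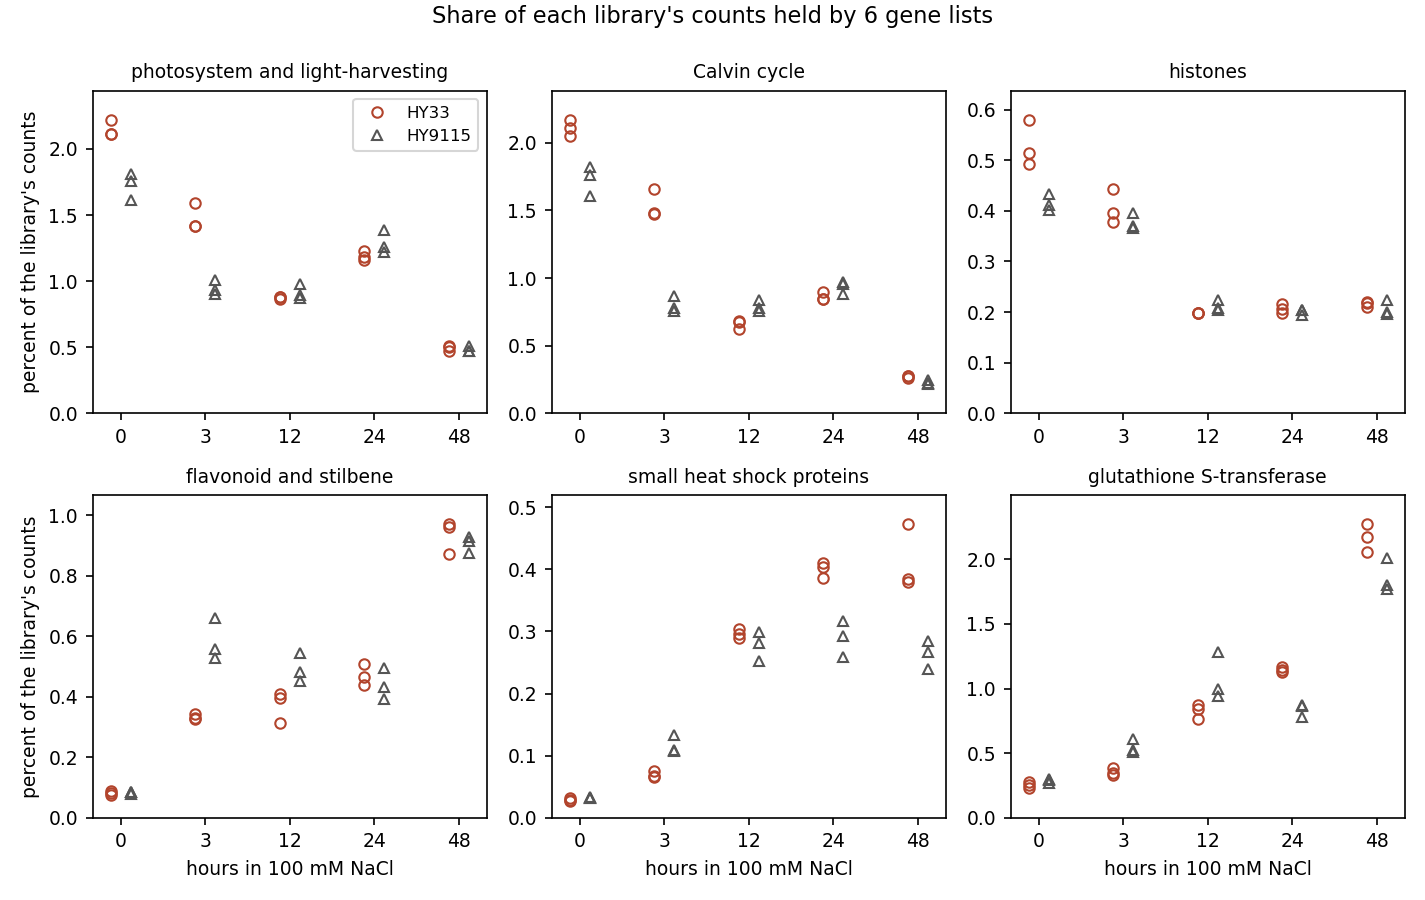
Percent of each library's counts held by 6 gene lists (y axis, linear, from 0) at 0, 3, 12, 24 and 48 h in 100 mM NaCl, with 1 circle per HY33 library and 1 triangle per HY9115 library. In HY33 the photosystem and Calvin cycle shares are lowest at 48 h (0.496% and 0.269% on average), and the flavonoid and stilbene and glutathione S-transferase shares are highest there (0.934% and 2.17%).

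Genes for the synthesis of phenolic defence compounds made up the opposite end of the response. Of 67 flavonoid and stilbene genes 55 rose and 2 fell, with a median of 3.92 (3.86 with a gene at 0 in all 0 h libraries set to its lower bound), and their share of the counts went from 0.0816% ± 0.00644 to 0.934% ± 0.0536. All 26 tested stilbene synthases, which make the resveratrol skeleton, rose, by 3.71 to 6.27 on the log2 scale. They alone held 0.515% ± 0.0327 of the counts at 48 h against 0.0221% ± 0.00256 at 0 h. The genes were assigned by their annotation, since stilbene and chalcone synthases share an orthology identifier and are similar in sequence, so reads may be split among them.

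Stilbene synthases sat in clusters. On chromosome 14, 17 genes were annotated between 12339400 and 13353997, and the 15 tested there all rose, with a summed level of 40 FPKM at 0 h and 897 at 48 h. A further 7 lay on chromosome 4 between 10843367 and 11464890, with a sum of 40.7 FPKM at 0 h and 729 at 48 h. The copies with the highest FPKM at 48 h lay outside these clusters, on chromosomes 1 and 11. Ah11g081400 (chromosome 11, 10139872 to 10141711) had 29.7, 26.8 and 25 FPKM at 0 h and 765, 746 and 680 at 48 h. Its 48 h libraries were all far above its 0 h libraries (5.13 ± 0.14, edgeR adjusted p = 1.7e-25). Ah01g026000 on chromosome 1 had 23, 20.9 and 18.9 FPKM at 0 h and 707, 694 and 645 at 48 h (5.4 ± 0.14), so these genes on different chromosomes reached like levels.

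**Figure D3:**
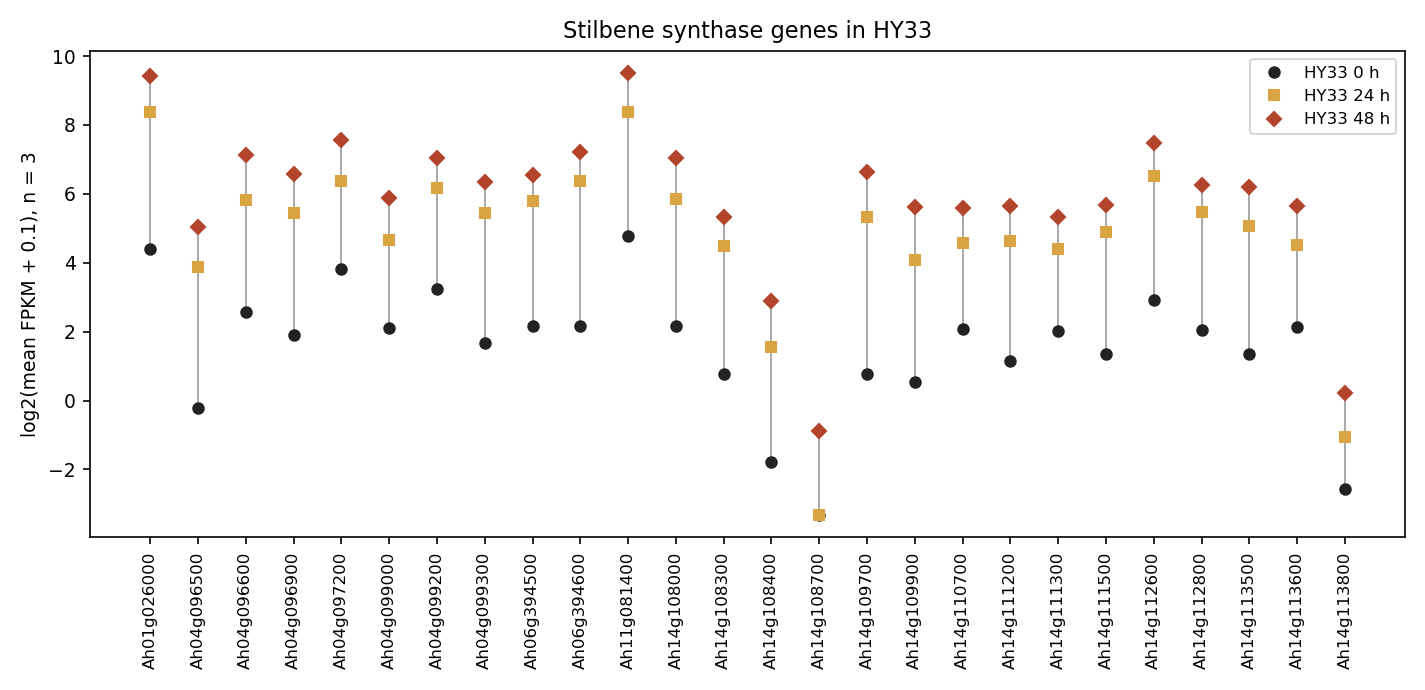
Mean level of each of the 26 tested stilbene synthase genes in HY33 at 0, 24 and 48 h, as log2(FPKM + 0.1) on the y axis, with 3 libraries per mean and genes ordered by chromosome and position. At each gene the 48 h level lies above the 24 h level, and 26 of 26 rose both from 0 h and from 24 h.

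Chalcone synthases, which open the flavonoid pathway, rose in 16 of 17 cases with a median of 3.51. Ah04g017300 went from 14.2 ± 0.734 to 585 ± 29.2 FPKM (5.74 ± 0.14). The enzymes that follow toward isoflavonoids, the main flavonoid class of legumes, rose with it: 4 of 5 chalcone isomerases, both chalcone reductases, both isoflavone synthases and both isoflavone dehydratase genes. Chalcone reductase Ah17g008400 had 9.28, 9.63 and 6.77 FPKM at 0 h and 215, 212 and 209 at 48 h. All 48 h libraries exceeded all 0 h libraries, with a change of 5.01 ± 0.19 (edgeR adjusted p = 1.7e-21). Isoflavone synthase Ah13g501800 went from 12.5 ± 2.52 to 103 ± 7.55 FPKM (3.43 ± 0.15). The branch to flavanones and flavonols differed, with 1 of 8 genes risen and a median of 0.35 (-0.02 with library totals alone). Among 5 anthocyanidin and proanthocyanidin genes 2 rose and 2 fell.

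Upstream, all 5 cinnamate 4-hydroxylases and 5 of 7 phenylalanine ammonia-lyases rose, which carry out the opening steps from phenylalanine toward lignin, flavonoids and stilbenes. Of 19 4-coumarate CoA ligases, which activate the product, 4 rose and 3 fell, with a median of 0.08 (-0.3 with library totals alone). Phenylalanine ammonia-lyase Ah07g003900 went from 1.16 ± 0.0874 to 47.1 ± 0.695 FPKM (5.72 ± 0.18). Cinnamate 4-hydroxylase Ah09g395400 went from 9.05 ± 1.35 to 144 ± 14.1 FPKM (4.37 ± 0.14). Among 54 genes of the monolignol pathway, which makes lignin units, 26 rose and 12 fell. The O-methyltransferase Ah20g521200 rose from 1.7 ± 0.548 to 260 ± 13.9 FPKM (7.65 ± 0.28), while the cinnamyl alcohol dehydrogenase Ah03g424700 fell from 34.9 ± 3.34 to 4.92 ± 0.995 (-2.45 ± 0.14). The whole phenylpropanoid and lignin list had 40 of 85 genes risen and 15 fallen.

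Detoxification genes took a large share of the transcripts at 48 h. Of 81 glutathione S-transferases, enzymes that conjugate reactive compounds, 50 rose and 9 fell (41 and 14 with library totals alone), with a median of 1.46. Their share of the counts went from 0.253% ± 0.0226 to 2.17% ± 0.106. Ah20g111800 had 536, 483 and 437 FPKM at 0 h and 8861, 8395 and 7968 at 48 h. With a change of 4.49 ± 0.14 (edgeR adjusted p = 2.6e-24), it went from rank 76 to rank 4 among all genes by mean FPKM. Its relative Ah10g075400 rose from 208 ± 33.9 to 4391 ± 233 FPKM (4.77 ± 0.16). Ah13g246900 had 0.18, 0.35 and 0.53 FPKM at 0 h and 95.1, 107 and 87.1 at 48 h (8.4 ± 0.21), the highest change among the 81 genes tested. Among those that fell, Ah13g546500 went from 65.2 ± 3.31 to 13.3 ± 1.07 FPKM (-1.92 ± 0.14).

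Class III peroxidases, which act on cell wall phenolics, went in both directions, in a list added after values were seen. Of 98 genes 48 fell and 20 rose. The summed share of the list went up all the same, from 0.415% ± 0.0202 of the counts to 0.829% ± 0.0388. Ah17g161600 had 96, 89.5 and 83.8 FPKM at 0 h and 1999, 1844 and 1714 at 48 h (4.74 ± 0.17, edgeR adjusted p = 4.3e-22). At the other end, Ah11g493600 had 6.8, 8.06 and 6.35 FPKM at 0 h and was at 0 in every 48 h library, at least 262-fold lower against a floor of 3 counts over the group. Chitinases, another list added then, cut the chitin of fungal walls and rose in 11 of 21 cases and fell in 4. Chitinase Ah12g210300 had 13.8, 16 and 10.9 FPKM at 0 h and 1728, 1453 and 1425 at 48 h, a rise of 7.2 ± 0.26 (edgeR adjusted p = 3.4e-22) with no overlap between libraries.

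The highest transcript of all at 48 h was Ah11g430400 (chromosome 11, 142211405 to 142212453), chosen after its values were seen and annotated with abscisic acid binding, RNA nuclease activity and the defence response. It had 2794, 3005 and 2366 FPKM at 0 h and 22971, 22060 and 19945 at 48 h (3.37 ± 0.14, edgeR adjusted p = 1.4e-20). Ah04g119100, with a similar annotation and also chosen afterwards, held rank 2 at 48 h and went from 8997 ± 1245 to 20724 ± 1606 FPKM (1.58 ± 0.15).

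Chaperone transcripts were high at 48 h. Of 117 heat shock genes 66 rose and 5 fell, with a median of 1.55. Small heat shock proteins, which hold unfolded proteins in solution, rose in 28 of 29 cases with a median of 5.21 (5.07 with genes at 0 set to their bound). Their share of the counts went from 0.0293% ± 0.00181 to 0.412% ± 0.0522. Ah09g260000 had 0.27, 0.07 and 0.24 FPKM at 0 h and 120, 163 and 128 at 48 h (9.79 ± 0.28, edgeR adjusted p = 8e-25). Its 48 h libraries differed among themselves more than those of most genes named here. The ATP-driven HSP70 chaperones rose in 8 of 19 cases, HSP90 in 6 of 16 and the disaggregase ClpB/HSP101 in 6 of 13. In the whole heat shock list, 4 genes lie in the stretches that stood apart at 0 h, and all 4 are among the 13 ClpB/HSP101 genes. Without the stretches 64 heat shock genes rose and 4 fell. The proline and jasmonate lists have 2 genes each in the stretches. The HSP70 gene Ah01g318500 went from 0.593 ± 0.162 to 124 ± 13.6 FPKM (8.09 ± 0.27) and the HSP90 gene Ah05g450000 from 6.6 ± 0.333 to 146 ± 14 (4.84 ± 0.13). Of 40 heat shock factors, which switch these genes on, 18 rose and 4 fell. Ah08g116700 went from 1.88 ± 0.361 to 44.2 ± 6.69 FPKM (4.93 ± 0.14), and Ah16g022400 fell from 12.2 ± 1.39 to 2.18 ± 0.3 (-2.11 ± 0.12).

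Abscisic acid genes differed by role. Of 15 PP2C phosphatases, the negative regulators of the pathway, 10 rose and 0 fell, while 9 of 20 receptors fell and 0 rose. Ah13g509400 (PP2C) had 1.18, 0.85 and 0.78 FPKM at 0 h and 30.2, 34.6 and 32.5 at 48 h, with no overlap and a change of 5.49 ± 0.12 (edgeR adjusted p = 1.1e-27). Receptor Ah20g189000 went from 7.98 ± 1.28 to 1.44 ± 0.182 FPKM (-2.09 ± 0.22). Of 24 SnRK2 kinases, which the hormone activates, 6 rose and 2 fell (3 and 6 with library totals alone), with Ah11g187000 going from 12 ± 1.73 to 36.3 ± 2.03 FPKM (1.97 ± 0.11). Among 11 genes of abscisic acid synthesis 5 fell and 0 rose, among them the zeaxanthin epoxidases Ah01g118600 (-1.38 ± 0.08) and Ah11g125200 (-1.45 ± 0.1).

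Genes for compatible solutes rose in part. Of 12 raffinose synthases 8 rose and 1 fell (5 and 2 with library totals alone), and of 8 galactinol synthases, which supply them, 5 rose and 2 fell. Raffinose synthase Ah13g315800 had 1 count in the 3 libraries at 0 h and 14.5, 15.7 and 14.2 FPKM at 48 h, a ratio of 1933 with a 95% counting interval of 347 to 76387 (exact binomial, counting error only). Galactinol synthase Ah06g067400 went from 3.56 ± 0.79 to 44.8 ± 7.3 FPKM (4.03 ± 0.17), while Ah19g179700 fell from 18.2 ± 3.46 to 0.883 ± 0.351 (-3.97 ± 0.28). For proline, 6 of 13 synthesis genes rose and 2 fell. Of 6 proline breakdown genes 2 rose and 1 fell (2 and 3 with library totals alone), and the whole proline list had a median of -0.22. The delta-1-pyrroline-5-carboxylate synthase Ah04g234400, which makes the committed step, had 11.3, 14.8 and 13.3 FPKM at 0 h and 94.1, 97.5 and 95 at 48 h (3.24 ± 0.08, edgeR adjusted p = 5.5e-26), and Ah14g278300 went from 15 ± 2.15 to 78.2 ± 2.54 (2.75 ± 0.09). Asparagine synthase, which stores nitrogen in a soluble amide, rose in 5 of 11 cases and fell in 2 (2 and 3 with library totals alone). Ah01g053200 had 10.9, 11.9 and 10.4 FPKM at 0 h and 237, 238 and 243 at 48 h (4.81 ± 0.09, edgeR adjusted p = 1.5e-29), whereas Ah01g056100 fell from 104 ± 12.2 to 28 ± 1.18 (-1.52 ± 0.09).

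Ion transport lists, added with their named genes after values were seen, had medians nearer 0. Of 18 genes annotated as sodium:proton antiporters, which move sodium out of the cytosol, 6 rose and 3 fell with a median of 0.55. Ah12g417900 went from 4.04 ± 0.651 to 10.4 ± 0.71 FPKM (1.73 ± 0.1), and Ah08g212500, a short model of 111 bases annotated with sodium transport across the plasma membrane, fell from 15.5 ± 1.2 to 1.65 ± 0.52 (-2.81 ± 0.41). Potassium transporters of the KUP family rose in 12 of 29 cases and fell in 3, with Ah12g423500 at 1.62, 3.27 and 1.78 FPKM at 0 h and 22.8, 17.4 and 18.1 at 48 h (3.5 ± 0.17). Of 31 plasma membrane proton pumps, which power such transport, 5 rose and 6 fell (3 and 12 with library totals alone), close to the shares of all genes. Ah10g333500 rose from 0.663 ± 0.186 to 15.6 ± 2.32 FPKM (4.94 ± 0.16).

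Water channel genes were mostly lower. Of 48 aquaporins 26 fell and 4 rose, with 13 of 18 plasma membrane PIP genes and 11 of 19 tonoplast TIP genes among the fallen. The tonoplast gene Ah15g124900 had 193, 244 and 189 FPKM at 0 h and 4.63, 4.96 and 4.94 at 48 h (-5.06 ± 0.13, edgeR adjusted p = 1.6e-26). PIP gene Ah03g019800 went from 145 ± 6.86 to 8.58 ± 0.317 FPKM (-3.71 ± 0.11). The risen PIP genes were a pair: Ah05g468500, with 135 ± 8.71 and 362 ± 13.2 FPKM (1.8 ± 0.08), and Ah19g008200, with 159.9 ± 14.9 and 443 ± 17.3 (1.84 ± 0.08). The tonoplast gene Ah05g283400 rose from 0.267 ± 0.144 to 34.6 ± 3.88 FPKM (7.36 ± 0.27).

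Among growth genes, falls outnumbered rises. Of 49 cell cycle and DNA replication genes 26 fell and 0 rose, with 16 of 24 cyclins and 10 of 20 MCM helicase and PCNA genes among them, while 0 of 5 ribonucleotide reductase genes passed in either direction. Cyclin Ah20g461700 had 28.1, 25.7 and 28.1 FPKM at 0 h and 1.56, 0.87 and 1.44 at 48 h, without overlap (-4.03 ± 0.15, edgeR adjusted p = 8.4e-22). Core histones, which package new DNA, fell in 35 of 64 cases and rose in 2, and their share went from 0.529% ± 0.0455 to 0.216% ± 0.00408. The histone H3 gene Ah10g252700 went from 40.3 ± 1.62 to 2.6 ± 0.938 FPKM (-3.58 ± 0.22). Of 32 cellulose synthases 19 fell and 0 rose (28 fell with library totals alone). Cellulose synthase Ah04g142000 went from 16.9 ± 3.84 to 2.29 ± 0.662 FPKM (-2.51 ± 0.19).

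Enzyme genes for the barrier polymers suberin, cutin and wax followed the same course, with 46 of 70 fallen, 2 risen and a median of -1.33. All 6 feruloyl transferases, 11 of 14 fatty acid hydroxylases and 10 of 14 fatty acyl reductases fell. Fatty acyl reductase Ah16g468600 went from 12.1 ± 0.415 to 0.53 ± 0.338 FPKM (-4.14 ± 0.24) and feruloyl transferase Ah18g469000 from 9.03 ± 0.552 to 0.333 ± 0.116 (-4.38 ± 0.28). All 6 tested polygalacturonases of a list added afterwards fell; these enzymes cut pectin. Ah05g308500 had 22.8, 19.5 and 20.4 FPKM at 0 h and 1 count in all 3 libraries at 48 h, a ratio of 1960.1 in favour of 0 h with a 95% counting interval of 351 to 77459.

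Hormone genes of growth and defence differed too. Of 217 auxin genes 89 fell and 12 rose, including 39 of 76 receptors, Aux/IAA repressors and response factors and 34 of 98 SAUR genes, which are fast auxin targets (52 with library totals alone). Aux/IAA gene Ah19g034900 went from 23.4 ± 3.34 to 2.72 ± 0.39 FPKM (-2.73 ± 0.18). GH3 enzymes, which conjugate and so inactivate auxin, were divided, with 7 of 19 risen and 5 fallen (6 and 7 with library totals alone). Among them Ah01g129300 had 0.15, 0.22 and 0.08 FPKM at 0 h and 58.6, 67.9 and 73.4 at 48 h (9.17 ± 0.2, edgeR adjusted p = 7.5e-28). In the ethylene list 14 of 45 genes rose and 5 fell. ACC oxidase Ah17g079400, which makes the hormone, went from 2.7 ± 0.745 to 120.2 ± 10.4 FPKM (5.85 ± 0.27), and the response factor gene Ah20g045600 from 4.37 ± 2.32 to 122 ± 6.89 (5.2 ± 0.2).

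In the jasmonate list 18 of 64 genes rose and 12 fell (20 with library totals alone). OPDA reductases, which complete a peroxisomal step of jasmonate synthesis, rose in 7 of 9 cases. Ah15g153900 had 0.26, 0.37 and 0.2 FPKM at 0 h and 35.3, 35.1 and 36.5 at 48 h (7.39 ± 0.19, edgeR adjusted p = 2.2e-26). By contrast, 0 of 19 receptor, JAZ repressor and MYC2 genes rose and 3 fell (6 with library totals alone). The 13-lipoxygenases at the start of the pathway went both ways: Ah06g417900 rose from 3.25 ± 0.297 to 24.4 ± 0.577 FPKM (3.28 ± 0.1), and Ah03g044000 fell from 16.2 ± 1.73 to 1.12 ± 0.0808 (-3.49 ± 0.1).

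Clock genes differ with the hour of sampling, which the labels do not give. All 4 morning factors of the LHY and CCA1 type fell, 7 of 14 evening genes rose (4 with library totals alone), and 4 of 12 pseudo-response regulators rose with a median of 0.07. LHY gene Ah12g057500 went from 73.6 ± 7.25 to 11.5 ± 0.749 FPKM (-2.31 ± 0.08), and GIGANTEA gene Ah15g560100 from 4.21 ± 0.277 to 22.1 ± 1.74 (2.77 ± 0.1). The part of the hour of sampling in the other results was not tested.

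Several metal uptake genes went from high levels to almost none. The NRAMP transporter Ah08g071900 (chromosome 8, 10266423 to 10273732), annotated with manganese and cadmium transport and iron homeostasis, had 251.59, 338.44 and 286.5 FPKM at 0 h and 0.23, 0.28 and 0.33 at 48 h. Its change was -9.65 ± 0.24 (edgeR adjusted p = 1.3e-26). Another gene of the family, Ah17g439700, went from 180.1 ± 31.9 to 0.147 ± 0.0462 FPKM (-9.86 ± 0.25). The NRAMP list, added after values were seen, held 4 risen and 3 fallen genes of 11 (1 and 3 with library totals alone). Ah18g247900, a nicotianamine synthase whose product chelates metals, went from 13.6 ± 1.74 to 0.13 ± 0.0346 FPKM (-6.27 ± 0.35), and 2 of 4 such genes fell. Ah09g270500, annotated with scopoletin 8-hydroxylase activity of coumarin synthesis and the response to iron, had 134, 160 and 138 FPKM at 0 h and 0.07 in each library at 48 h (-10.5 ± 0.26, edgeR adjusted p = 2.5e-26). Ah01g445200, annotated as a ubiquitin ligase of the response to iron starvation, went from 55.2 ± 14.9 to 0.04 ± 0.03 FPKM (-9.96 ± 0.36). Of 8 NRT2 nitrate transporters 4 fell, with Ah03g015200 going from 11.8 ± 0.91 to 0.417 ± 0.249 FPKM (-4.43 ± 0.24).

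Other tissue and quality markers moved with the comparison. Nutrient reservoir and rRNA models were added as lists after values were seen. Genes annotated as nutrient reservoirs, used as cotyledon markers, rose in 8 of 20 cases and fell in 1 (7 and 4 with library totals alone), holding 0.0764% ± 0.00159 of the counts at 0 h and 0.0917% ± 0.000975 at 48 h. Of 140 rRNA-annotated models, a sign of how well poly(A) selection worked, 59 fell and 1 rose, and their share went from 0.0557% ± 0.00573 to 0.0236% ± 0.0018. Of these models 43 lie in the stretches above. The remaining lists stayed closer to the background. Of 19 ATG8 autophagy genes 2 rose and 1 fell (1 and 3 with library totals alone), of 25 trehalose genes 5 rose and 2 fell (4 and 6 with library totals alone), and of 38 nitrogen assimilation genes 9 rose and 10 fell (3 and 11 with library totals alone).

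**Figure D4:**
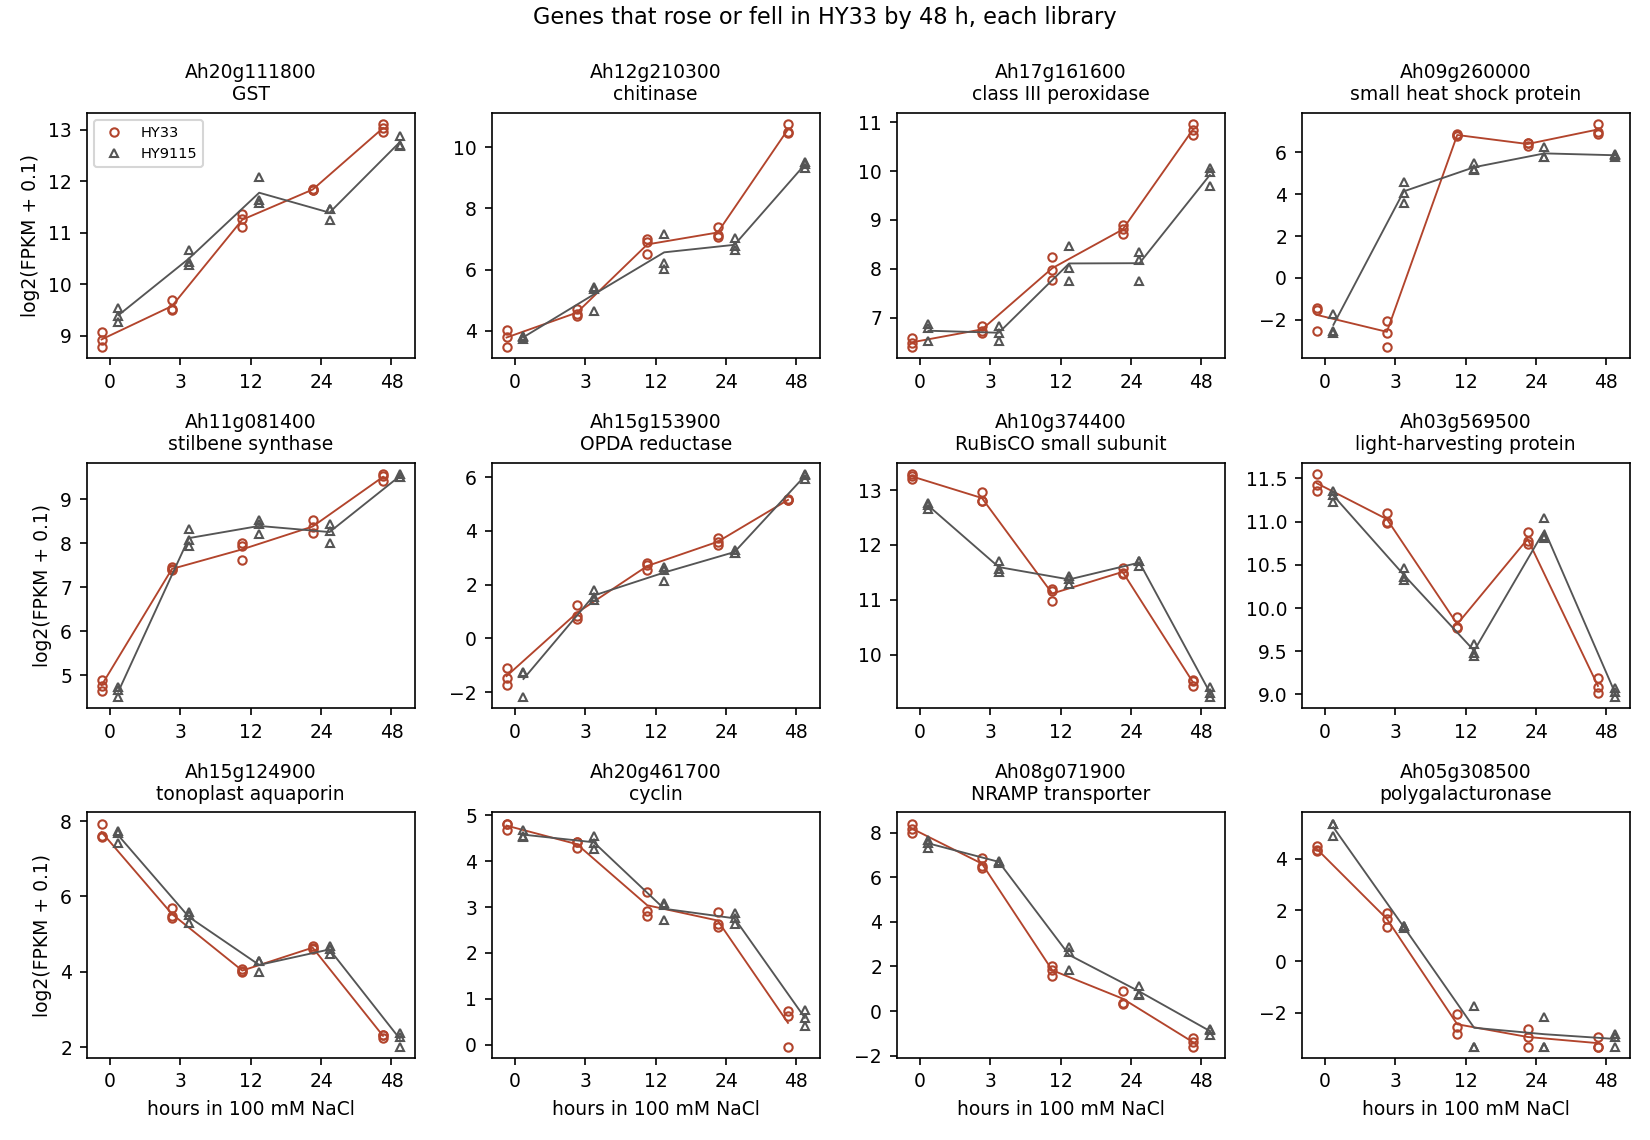
Level of 12 genes in each library as log2(FPKM + 0.1) against hours in 100 mM NaCl (evenly spaced positions), with circles for HY33, triangles for HY9115 and lines through the group means. The upper 6 genes rose and the lower 6 fell in HY33 at 48 h, from 486 to 8408 FPKM for the glutathione S-transferase Ah20g111800 and from 292 to 0.28 for the NRAMP transporter Ah08g071900.

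The second comparison asked what changed between 24 and 48 h in HY33. Photosynthesis genes fell further and stilbene genes rose further, while most chaperone genes did not pass. Of the tested genes 12.8% were called (5427), with 4.92% (2082) higher at 48 h and 7.91% (3345) lower. With library totals alone 1179 were higher and 5358 lower. The comparison shares its 48 h libraries with the comparison above, so values are set side by side and not read as independent.

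Of 113 photosystem and light-harvesting genes 52 fell from 24 to 48 h and 0 rose, and of 26 Calvin cycle genes 12 fell and 0 rose. RuBisCO small subunit Ah10g374400 stood at 2915 ± 112 FPKM at 24 h and 722 ± 32.6 at 48 h (-1.76 ± 0.08, edgeR adjusted p = 3.2e-17). The photosystem share was 1.16 to 1.23% of the counts at 24 h and 0.474 to 0.511% at 48 h, so the libraries did not overlap. It had not fallen steadily, since it stood at 0.865 to 0.88% at 12 h, below 24 h. All 26 stilbene synthases rose from 24 to 48 h, as did 11 of 17 chalcone synthases, 7 of 7 phenylalanine ammonia-lyases and 5 of 5 cinnamate 4-hydroxylases. Flavanone and flavonol enzymes differed, with 3 of 8 lower at 48 h.

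Glutathione S-transferases rose in 15 of 81 cases and fell in 0, and Ah20g111800 went from 3667 FPKM at 24 h to 8408 (1.45 in log2, edgeR adjusted p = 8.1e-12). Chitinase Ah12g210300 stood at 148 FPKM at 24 h and 1535 at 48 h (3.63 in log2, edgeR adjusted p = 4.8e-15). Peroxidase Ah11g034000 went from 0.623 to 16.3 FPKM (4.95 in log2, edgeR adjusted p = 7.2e-14). Of 98 class III peroxidases 22 rose and 16 fell. Fermentation genes, which regenerate NAD without oxygen, rose in 11 of 24 cases from 24 h and fell in 2 (9 and 4 from 0 h), with alcohol dehydrogenase Ah08g063400 at 73.4 FPKM at 24 h and 214 at 48 h (1.8 in log2).

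Small heat shock proteins and histones differed little between 24 and 48 h, and other lists were mixed. Of 29 small heat shock proteins 4 rose further and 0 fell, with a median of 0.23, and their share was 0.4% ± 0.0128 at 24 h. Of 64 histone genes 2 rose and 0 fell, and their share was 0.207% ± 0.00806 at 24 h. In the cell cycle list the roles parted after 24 h: 10 of 24 cyclins fell further and 1 rose, while 3 of 20 MCM and PCNA genes rose and 0 fell, with a median of 0.85. PP2C phosphatase Ah13g509400 stood higher at 24 h, at 54.4 FPKM, than at 48 h, at 32.4 (-0.49 in log2, under the fold threshold). Auxin genes fell in 51 of 217 cases and rose in 5, including 31 of 98 SAUR genes. Of 48 aquaporins 18 fell and 4 rose.

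Among single genes, Ah09g308700, a MYB factor annotated with salt and drought responses, peaked in between: it had 0.24, 0.19 and 0.42 FPKM at 0 h, a mean of 8.11 at 24 h and 0.09, 0.41 and 0.5 at 48 h. It fell by 4.33 from 24 to 48 h (edgeR adjusted p = 4.4e-13), while its 0 h and 48 h libraries overlapped. The gene Ah01g283000, annotated with pipecolic acid synthesis and systemic acquired resistance, had a mean of 0.37 FPKM at 24 h and 6.28, 4.91 and 4.58 at 48 h (4.07 in log2, edgeR adjusted p = 5.1e-11). ACC synthase Ah12g023800, which makes the ethylene precursor, had 1 count in the 3 libraries at 0 h and stood at 1.22 FPKM at 24 h and 7.37 ± 0.166 at 48 h (2.84 in log2).

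The third comparison asked where the change from 0 to 48 h differed between HY33 and HY9115, as the difference of the log2 changes, tested in the same fit. Stilbene and photosynthesis genes moved alike in direction, while class III peroxidases, small heat shock proteins and glyoxylate cycle genes differed in larger shares than all genes. Of the tested genes 8.0% were called (3384), with 5.04% (2134) more positive in HY33 and 2.95% (1250) more negative. With library totals alone the split was 1725 and 1636. Since the baseline at 0 h enters this test, its calls were also counted without the 2417 genes that differed between the cultivars at 0 h. That left 2431 calls (1575 and 856), and leaving out the stretches left 3158. Both are counts from the same fit, so they do not check the baseline of the remaining genes.

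In the stilbene and chalcone synthases the difference was called in 0 of 26 and 1 of 17 cases. Ah11g081400 reached 731 FPKM in HY33 and 741 in HY9115, with a difference of -0.04 ± 0.17. In the photosystem and light-harvesting list 2 of 113 genes were more negative in HY33 and 0 more positive, and Ah10g374400 stood at 722 and 635 FPKM at 48 h (-0.24 ± 0.12, edgeR adjusted p = 0.14). Not passing this test does not show that the changes were the same.

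**Figure D5:**
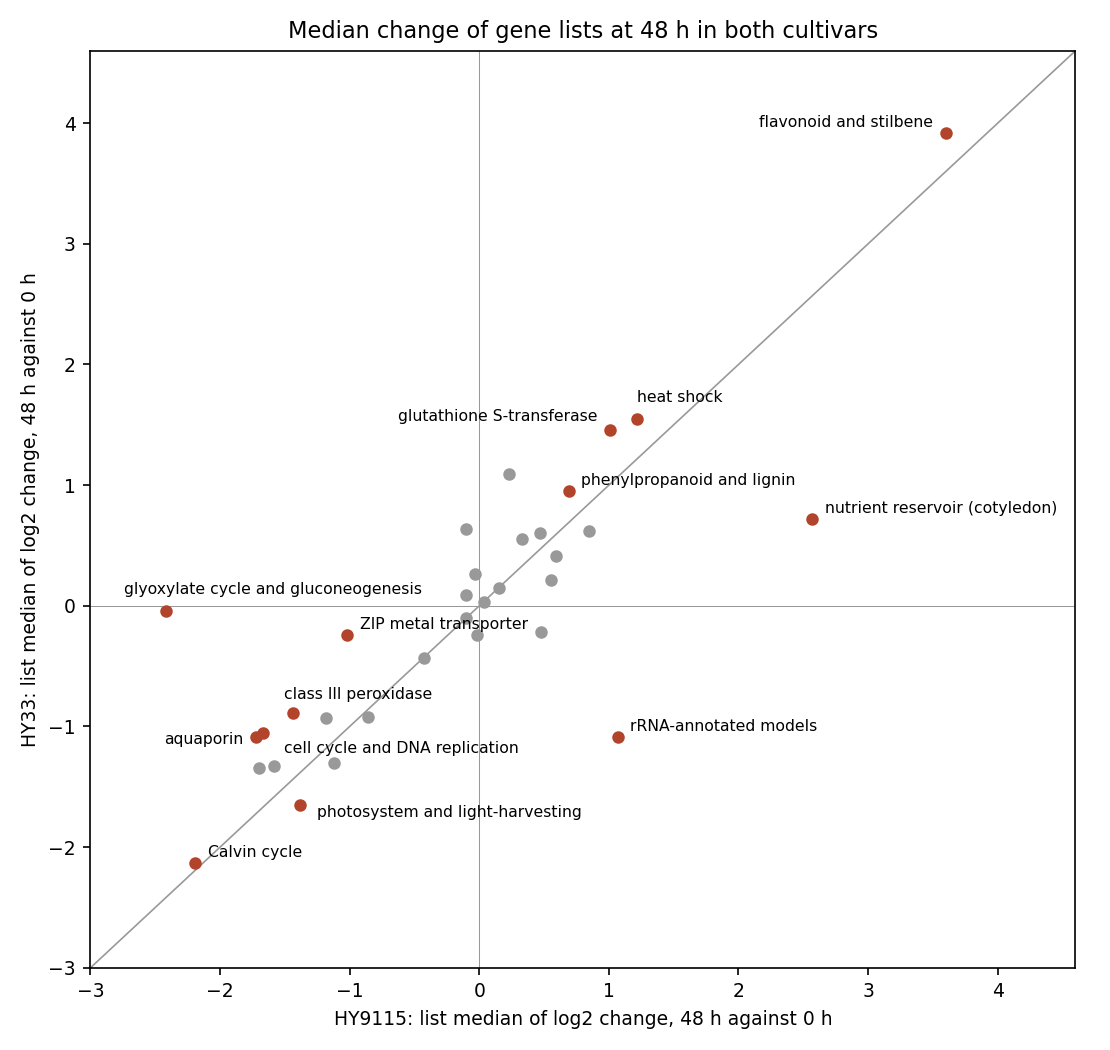
Median log2 change from 0 to 48 h of each gene list with at least 10 tested genes, in HY9115 (x axis) and HY33 (y axis), with the line of equal change and selected lists named in red. The flavonoid and stilbene list lies at 3.92 in HY33 and 3.6 in HY9115. The glyoxylate cycle (-0.04 and -2.42), rRNA-annotated (-1.09 and 1.07) and nutrient reservoir (0.72 and 2.57) lists lie far from the line. In the nutrient reservoir list the median of the differences gene by gene was -0.35, and 1 of 20 was called. The 2 axes come from separate libraries of the 2 cultivars.

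Class III peroxidases were more positive in HY33 in 31 of 98 cases and more negative in 3. In HY9115, where 35.7% of all tested genes were called from 0 to 48 h (14.5% risen, 21.3% fallen), 18 of them rose and 57 fell, and their share of the counts at 48 h was 0.482% against 0.829% in HY33. Ah07g150700 had 71.9 ± 2.65 and 1144 ± 86.2 FPKM at 0 and 48 h in HY33 and 107 and 631 in HY9115, a difference of 1.54 ± 0.19 (edgeR adjusted p = 1.1e-07). Ah17g161600 reached 1853 FPKM in HY33 and 971 in HY9115 (1.29 ± 0.21, edgeR adjusted p = 2.4e-05). Chitinase Ah12g210300 reached 1535 and 692 FPKM from near-equal means of 13.6 and 13.7 at 0 h (1.28 ± 0.31, edgeR adjusted p = 0.0021).

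Small heat shock proteins were more positive in HY33 in 8 of 29 cases and more negative in 0, with shares of 0.412% in HY33 and 0.264% in HY9115 at 48 h, and 0.0293% and 0.0323% at 0 h. Fermentation genes were more positive in 8 of 24 cases. Alcohol dehydrogenase Ah08g063400 went from 86.3 to 214 FPKM in HY33 and from 121 to 87.6 in HY9115 (1.9 ± 0.18, edgeR adjusted p = 4.8e-10), so the means went in opposite directions. MCM and PCNA genes were more positive in 6 of 20 cases, aquaporins in 7 of 48 and phenylpropanoid genes in 10 of 85, with 0 more negative in each. Cinnamate 4-hydroxylase Ah09g395400 reached 144 FPKM in HY33 and 75.6 in HY9115 (1.06 ± 0.19), a call that was lost with library totals alone (0.94) and without any 1 of 4 libraries: HY33 48 h replicate 2, HY33 0 h replicate 3, HY9115 48 h replicate 3 or HY9115 0 h replicate 3. In the other direction, 3 of 15 PP2C phosphatases were more negative in HY33, and Ah03g479600 reached 29.6 FPKM in HY33 and 53 in HY9115 (-1.25 ± 0.19, edgeR adjusted p = 4.6e-06). Lipoxygenase Ah06g417900 reached 24.4 and 60.1 FPKM (-1.13 ± 0.15).

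Other differences came with unlike shares at 0 h. Of 11 glyoxylate cycle and gluconeogenesis genes, which turn stored fat into sugar in germinating seeds, 6 were more positive in HY33. In HY9115 8 of them fell, from 0.39% of the counts at 0 h to 0.0247% at 48 h, while the HY33 share was low at both times, with 0.0645% ± 0.0108 and 0.0512% ± 0.0149. Malate synthase Ah11g246200 had 0.04, 0.04 and 0.07 FPKM in HY33 at 0 h and 8.45, 10.6 and 9.77 at 48 h, against means of 30.1 and 2.69 in HY9115, a difference of 11.08 ± 0.51 (edgeR adjusted p = 2e-17). The isocitrate lyase and malate synthase genes are also cotyledon markers, and the part of cotyledon tissue in these values was not tested. Nutrient reservoir genes rose in 11 of 20 cases in HY9115 against 8 in HY33, from like shares at 0 h (0.0705% and 0.0764%). Their difference was called in 1 of 20 cases, more negative in HY33, and had a median of -0.35. In rRNA-annotated models 64 of 140 were more negative in HY33, and 42 rose in HY9115. Their share of the counts at 0 h was 0.0557% in HY33 and 0.0126% in HY9115, and at 48 h it was 0.0236% and 0.0198%. The cultivars thus differed in this quality marker mainly at 0 h, the baseline of the comparison.

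In some genes with a called difference the cultivars were not called apart at 0 h. Ah13g476800, annotated with vascular and leaf patterning, had 8.34, 7.66 and 10 FPKM at 0 h and 0.11, 0.14 and 0.1 at 48 h in HY33, against means of 7.77 and 5.15 in HY9115. The difference was -5.47 ± 0.27 (edgeR adjusted p = 1.3e-16). Ah13g391200, annotated as a folding chaperone at the ribosome, went from 5.66 ± 1.12 to 0.05 ± 0.0173 FPKM in HY33 and from 5.49 to 3.12 in HY9115 (-5.78 ± 0.35, edgeR adjusted p = 2.2e-14). Ah14g192700, a ZIP metal transporter, had 1 count over the 0 h libraries of HY33 and 6.71, 8.37 and 7.4 FPKM at 48 h, against means of 0.04 and 0.147 in HY9115 (edgeR adjusted p = 0.025 for the difference, a call lost without HY9115 0 h replicate 1). Its ratio in HY33 was 565 with a 95% counting interval of 101 to 22365. Of 21 ZIP genes, a list added after values were seen, 9 were more positive in HY33 and 0 more negative. The list's shares at 0 h were unlike, with 0.0257% of the counts in HY33 and 0.0429% in HY9115. From 0 to 48 h, 4 rose and 6 fell in HY33, and 2 rose and 11 fell in HY9115. For Ah13g395100, a kinase with an annotation to hyperosmotic salinity, the count was 0 in every HY33 library at 0 h and every HY9115 library at 0 and 48 h, while HY33 had 9.14, 11.2 and 13.9 FPKM at 48 h, at least 76.6-fold higher than at 0 h. Its difference between cultivars could not be estimated because 3 groups were at 0.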

How the data were processed

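Whole seedlings gave 30 poly(A) RNA libraries in 10 groups of 3. The deposited table holds whole-number read counts and FPKM values per gene, both made by the authors. HTSeq 0.6.1, HISAT2 2.2.1, DESeq2 and cutadapt 1.9.1 are named in the submitters' processing notes, with no role or order. Genome build and strand setting: not given in the sources used here. The deposited FPKM equalled count over length and library total in 100% of values (tolerance 0.005). FPKM served for the filter (at least 1 in at least 3 libraries, keeping 99.57% of counts) and for levels only. Totals were 13072324 to 18788677 counts over all libraries.

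Counts were tested with edgeR 4.0.16 (R 4.3.3), using TMM scaling, 1 mean per group over all 30 libraries and the quasi-likelihood test, with Benjamini-Hochberg adjustment over 42311 genes, a threshold of 0.05 on the adjusted p and of 1 on the absolute log2 change. The fit was tested on simulated data in which few genes changed, in random directions, so that test does not check the scaling. Contrasts were 48 h against 0 h and against 24 h in HY33, and the difference in change from HY9115. Gene groups came from the deposited orthology and ontology annotation (16917 tested genes had an orthology identifier). Genes are named where they had the largest change or difference in FPKM among called annotated genes, or within a role of a list. The largest changes from 0 to 48 h were picked only among genes with a mean FPKM of at least 5 in the higher group. Their 0 h and 48 h libraries also had to be without overlap. Genes said to be chosen afterwards are outside this rule. Comparisons, lists and genes were chosen with earlier results of these data known. Bounds use a floor of 3 counts over a group, and intervals cover counting error only. Alternatives were other scaling and filters, a replicate block, DESeq2 1.42.0, the compared libraries alone and leaving out each replicate. No sequences are shown.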

Additional observations from a re-analysis of the deposited data

Results flagged for a closer look

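In 21 named genes the change from 0 to 48 h differed between HY33 and HY9115 by edgeR's test of the difference itself (log2, HY33 minus HY9115). The change was more positive in HY33 for asparagine synthase Ah01g056100 (2.44), GH3 gene Ah01g129300 (1.66), peroxidases Ah07g150700 (1.54) and Ah17g161600 (1.29), alcohol dehydrogenase Ah08g063400 (1.9) and cinnamate 4-hydroxylase Ah09g395400 (1.06). The same held for malate synthase Ah11g246200 (11.08), ACC synthase Ah12g023800 (2.79), chitinase Ah12g210300 (1.28), raffinose synthase Ah13g315800 (4.03) and ZIP transporter Ah14g192700 (7.04). It also held for fatty acyl reductase Ah16g468600 (1.52), beta-xylosidase Ah13g590700 (1.67) and malic enzyme Ah08g112800 (1.01). The change was more negative in HY33 for PP2C phosphatase Ah03g479600 (-1.25), lipoxygenase Ah06g417900 (-1.13), NRAMP transporter Ah08g071900 (-1.21), antiporter Ah08g212500 (-1.78), scopoletin hydroxylase Ah09g270500 (-2.76), chaperone Ah13g391200 (-5.78) and patterning gene Ah13g476800 (-5.47). The cultivars already differed at 0 h in Ah01g129300, Ah09g270500, Ah11g246200 and Ah13g315800. HY33 had 1 count over its 0 h libraries in Ah12g023800, Ah13g315800 and Ah14g192700, so those fitted values depend on the prior count.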

How the results depend on the processing

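Calls from 0 to 48 h numbered 14559 with RLE size factors, 14547 with DESeq2, 14529 from the compared libraries alone, 17138 without a filter and 14267 to 14690 with 1 replicate left out (5974 to 6460 higher, 8096 to 8387 lower). Leaving out a replicate gave 5147 to 5549 calls from 24 to 48 h (1962 to 2241 higher, 3175 to 3308 lower) and 3139 to 3435 for the difference between cultivars (1978 to 2236 and 1138 to 1225). Same-numbered HY33 libraries at 0 and 48 h had correlations of deviations of 0.074, 0.014 and 0.08. Different-numbered ones had -0.09 to 0.011, so any pairing by number was weak. A replicate block gave 14541, 5411 and 3341 calls in the 3 comparisons. With FPKM of at least 5, where fewer genes were tested, the calls were 9095 (4999 lower) from 0 to 48 h, 3312 (1301 higher, 2011 lower) from 24 to 48 h and 2165 (734 lower) for the difference. Library totals alone gave 1179 higher and 5358 lower from 24 to 48 h. Of 70 list counts, 53 stayed within 1.5 times under library totals alone and 70 under RLE, DESeq2 and the block. Under library totals alone, medians changed sign for the jasmonate, nitrogen, fermentation, autophagy and raffinose and trehalose lists, and for HSP90, 4-coumarate CoA ligase, flavanone and flavonol, 13-lipoxygenase, nitrate and nitrite reductase and pseudo-response regulator genes. No named call from 0 to 48 h was lost in the alternatives that tested it (94 calls, 93 of them tested with FPKM of at least 5), and no named call reversed in any comparison. For the difference, 8 of 21 named calls were lost in some of 19 alternatives: Ah08g071900, Ah08g112800, Ah09g395400, Ah12g023800, Ah13g590700 and Ah16g468600 in 2 or more, and Ah09g270500 and Ah14g192700 in 1 each, without HY9115 48 h replicate 3 and HY9115 0 h replicate 1. From 24 to 48 h, 8 of 55 were lost in some alternative. The cause was not tested.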

Other observations

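Enzyme families outside the lists above were counted by orthology identifier, after values were seen, beside 14.3% risen and 20.1% fallen among all tested genes from 0 to 48 h in HY33. Kinesins, which are microtubule motors, were spread over 5 identifiers with 10 or more tested genes. These held 15 of 16 fallen (median -3.31), 9 of 10 (-2.04), 17 of 26 with 1 risen (-1.66), 8 of 12 (-1.38) and 12 of 25 (-0.91). Microtubule bundling MAP65 genes fell in 13 of 17 cases (-1.49). The kinesin gene Ah11g131800 had 7.02, 7.58 and 9.64 FPKM at 0 h and 1.36, 1.83 and 1.81 at 48 h (-1.9 ± 0.12), with no overlap. Among cell wall enzymes, the fallen included 19 of 24 pectate lyases (-3.14), 9 of 10 endoglucanases (-2.39) and 10 of 13 beta-xylosidases (-2.55). Pectate lyase Ah10g375600 went from 11.9 ± 0.758 to 0.11 ± 0.157 FPKM (-6.29 ± 0.35) and beta-xylosidase Ah13g590700 from 9.25 ± 0.761 to 0.4 ± 0.139 (-4.15 ± 0.27). Pectinesterases went both ways, with 17 of 59 risen and 30 fallen.

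Families of energy and carbon metabolism differed from each other. Of 12 mitochondrial ADP/ATP carriers, which exchange the nucleotides across the inner membrane, 8 rose and 0 fell (median 1.51), and Ah08g221200 went from 0.28 ± 0.13 to 33.2 ± 2.92 FPKM (7.22 ± 0.24). Malic enzymes of the NADP type rose in 7 of 12 cases (1.13), whereas those under the other malic enzyme identifier rose in 0 of 10 and fell in 3 (-0.36). The NADP type gene Ah08g112800 went from 3.95 ± 0.305 to 34.1 ± 2.49 FPKM (3.48 ± 0.1). ATP citrate lyase subunits rose in 6 of 10 cases and fell in 2, and 6-phosphofructokinases rose in 8 of 16 and fell in 1. By contrast, 0 of 15 hexokinases passed in either direction, 4 of 14 isocitrate dehydrogenases fell and 0 rose, and 3 of 20 pyruvate kinases rose and 0 fell. The glycolytic glyceraldehyde phosphate dehydrogenase gene Ah18g476200 went from 620.1 ± 18.8 to 1765 ± 22.5 FPKM (1.88 ± 0.07), while the 4 tested plastid genes fell. It is a single gene, and the glycolytic family was not counted as a whole.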
